A study of Mus musculus with 12 samples.

Results

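The subject is 1 quantity per gene, the difference between genotypes in how its mRNA level changed from 1 h to 6 h of B cell receptor stimulation. It is the change in Fcmr knockout (KO) cells, 6 h minus 1 h, minus the same change in wild-type (WT) cells, so a positive value means a larger increase or a smaller decrease in KO. All 12 libraries of the series entered it, and it was tested in 11841 of the 55487 genes in the table, those with a mean of at least 1 FPKM (fragments scaled by transcript length and library size). B cells labelled as naive had been purified from mouse spleen and cultured with F(ab')2 anti-IgM, antibody fragments that cross-link IgM on the surface, at 10 µg/mL. The 4 groups were WT at 1 h, WT at 6 h, KO at 1 h and KO at 6 h, with 3 libraries each. All 4 received the antibody and no unstimulated library was used, so the change covers the span between the 2 times and not the onset of the response. Age, sex and the way the Fcmr allele was made are not given in the labels used here.

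Fcmr encodes the Fc receptor that binds IgM, and in mice B cells are its main site of expression. Cross-linking of the B cell receptor starts kinase cascades through SYK, BTK and PLCG2, which open calcium, ERK and NF-kB pathways. A first wave of immediate early transcription factors is followed by waves of metabolic, biosynthetic and cell cycle genes, while many genes of the resting state go down. A difference of changes asks whether that course ran differently without the receptor, apart from any gap between the genotypes that is constant in time.

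Fcmr was measured in every library first. Its level in WT was 352, 388 and 379 FPKM at 1 h and 368, 401 and 380 FPKM at 6 h. In KO it was 48.9, 50.1 and 48.9 FPKM at 1 h and 43.1, 46.4 and 42.6 FPKM at 6 h. All 6 KO libraries lay far below all 6 WT libraries, with residual signal in each of them. The difference of changes for Fcmr was -0.20 on the log2(FPKM + 1) scale (SE 0.07, limma unadjusted p = 0.0182), and it was not called after adjustment over all genes. All 16 pan B cell markers were detected in each group, with summed levels of 11961 to 15767 FPKM at 1 h and 5780 to 9163 FPKM at 6 h. The libraries held 19260751 to 24058818 fragments. On the second principal component, with 5.3% of the variance, WT replicate 3 stood at -5.91 and -6.28, among the KO libraries (-15.79 to -2.23) and away from the other WT libraries (10.77 to 20.97).

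The change over time was similar in size in both genotypes for most genes. Across genes, the change in KO and the change in WT had a correlation of 0.98 (a description over 11841 genes, which are not independent replicates). Differences of changes were small, with 95% of genes between -0.35 and 0.39 on the log2 scale. Limma called 3 genes at an adjusted p under 0.05, which is 0.0253% of the genes tested. All 3 differences were positive, and 0 genes were called with a lower change in KO. With the replicate number within each genotype as a block, or without both WT libraries numbered 3, limma called 1 gene, Map3k19. At an unadjusted p under 0.05 there were 537 genes, 4.54% of those tested against the 5% that uniform p-values would give, with 371 higher and 166 lower in KO. The unadjusted 95% interval of a typical gene reached 0.24 log2 units to either side in the main fit, which had no replicate block. With 3 libraries per group, a smaller estimate in a gene with that interval did not reach an unadjusted p under 0.05 in that fit. The smallest called difference was 0.50.

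**Figure D1:**
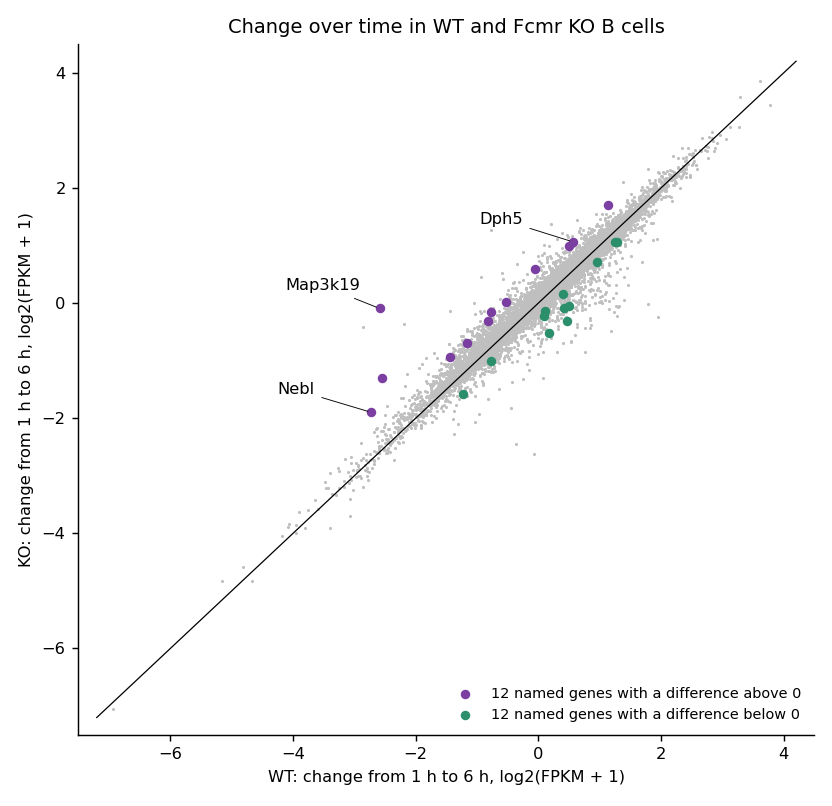
Each point is 1 of the 11841 tested genes, with its change from 1 h to 6 h in WT on the x axis and in KO on the y axis, both in log2(FPKM + 1) units, and the genes named in the text in colour. Most genes lie along the line of equal change, and Map3k19 stands farthest above it among the called genes.

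Map3k19, which encodes a kinase of the MAP3K family, had the largest difference among the called genes. Its level in WT was 5.82, 7.06 and 5.95 FPKM at 1 h and 0.299, 0.221 and 0.109 FPKM at 6 h. In KO it was 0.0451, 0.129 and 0.0751 FPKM at 1 h, and 0.00778, 0 and 0.034 FPKM at 6 h. The WT libraries were high at 1 h and low at 6 h, whereas the KO libraries were already below every WT library of the same time at 1 h. The change was -2.59 in WT and -0.09 in KO, a difference of 2.49 (SE 0.14, limma adjusted p = 3.3e-05). The KO values rest on few fragments, 5, 14 and 9 at 1 h and 1, 0 and 4 at 6 h, against 639, 727 and 636 at 1 h and 33, 26 and 14 at 6 h in WT. With 0.1 in place of 1 added to FPKM, the difference was 3.74 (limma adjusted p = 0.0923), and with limma's voom on whole fragments recovered from the table it was 2.32 (adjusted p = 1). The gene lies on chromosome 1 at 127815253 to 127855031 (mm10), 3.01 Mb from Fcmr.

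Nebl encodes nebulette, an actin-binding protein of the nebulin family. Its level in WT was 7.63, 7.93 and 7.78 FPKM at 1 h and 0.36, 0.354 and 0.281 FPKM at 6 h. In KO it was 3.89, 3.95 and 3.82 FPKM at 1 h and 0.288, 0.296 and 0.346 FPKM at 6 h. The genotypes were separate at 1 h and overlapped at 6 h. The change was -2.72 in WT and -1.90 in KO, a difference of 0.82 (SE 0.08, limma adjusted p = 0.0074). It was not called when each replicate number within a genotype was fitted as a block (adjusted p = 0.207), with 0.1 added (0.373) or with voom (0.216), all from limma. The gene lies on chromosome 2 at 17343909 to 17731464.

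Dph5 encodes the methyltransferase of diphthamide synthesis, a modification of translation elongation factor 2. In WT it was at 31.91, 29.71 and 29.73 FPKM at 1 h and at 44.16, 45.76 and 46.48 FPKM at 6 h. In KO it was at 20.05, 19.99 and 21.34 FPKM at 1 h and at 44.14, 45.10 and 42.21 FPKM at 6 h. KO started lower in every library and overlapped WT at 6 h. The change was 0.56 in WT and 1.06 in KO, a difference of 0.50 (SE 0.06, limma adjusted p = 0.0359). The block ended this call as well (adjusted p = 0.269), as did 0.1 added (0.0923), a filter at 5 FPKM (0.0769) and voom (0.0681), all from limma. Of 18 omissions of a library or a same-numbered pair, 1 left it called. The gene lies on chromosome 3 at 115887837 to 115934361.

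The promoter of Dph5 is shown because this called gene has a single start in the RefSeq table (build GRCm38.p6, chr3:115887933-115888232, plus strand). The 50 bases from the RefSeq start of transcription are in capitals, after 250 bases before it. The whole window lies within the gene's GENCODE span, which begins earlier, at 115887837.

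Dph5: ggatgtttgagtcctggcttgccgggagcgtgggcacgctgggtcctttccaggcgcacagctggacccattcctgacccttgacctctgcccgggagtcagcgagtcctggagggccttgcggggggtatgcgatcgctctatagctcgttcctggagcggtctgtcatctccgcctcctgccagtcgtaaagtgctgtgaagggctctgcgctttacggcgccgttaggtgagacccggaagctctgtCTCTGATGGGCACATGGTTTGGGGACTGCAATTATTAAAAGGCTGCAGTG

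These letters were searched on both strands for motifs of factors active in B cells. The AP-1 motif TGANTCA and the RBPJ motif GTGGGAA, which do not overlap in their letters, each had 0 matches in the window, and are held by 7.81% and 6.39% of the 32817 promoters in the table.

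**Figure D2:**
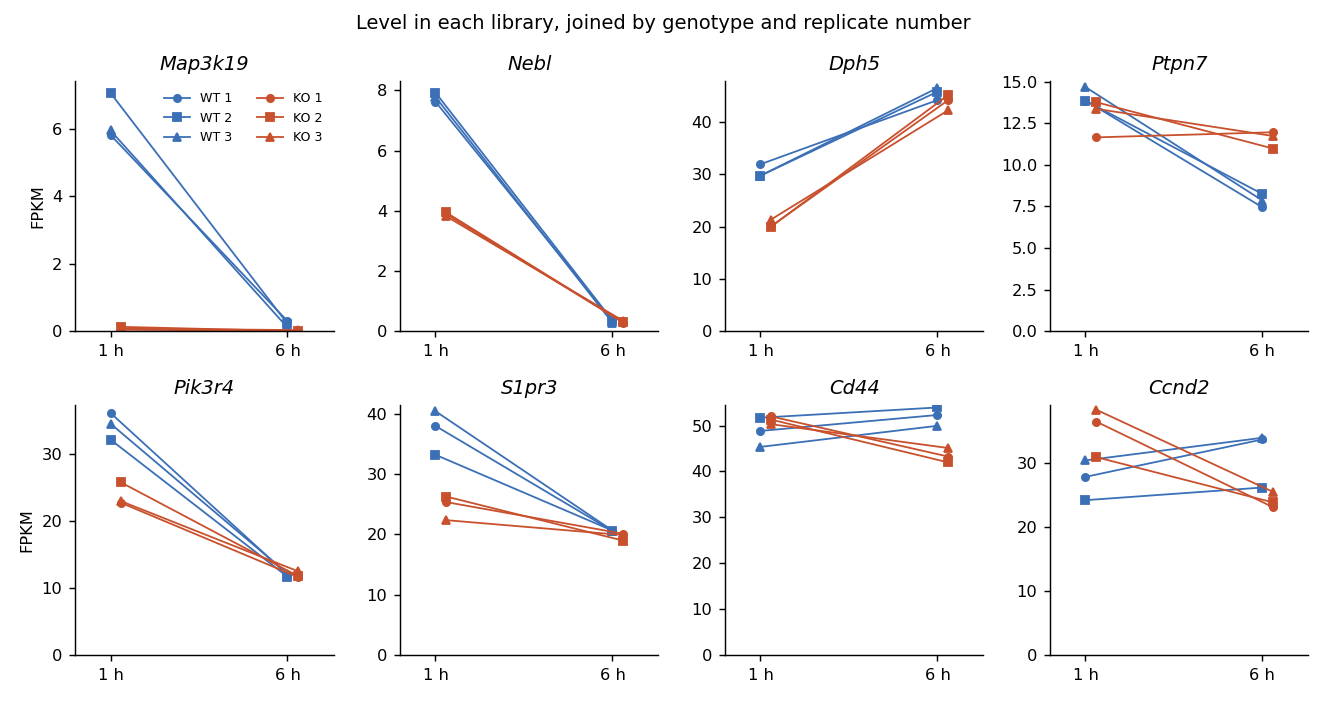
Each point is the FPKM of 1 library for 8 of the named genes, joined within a genotype by replicate number, at 1 h and 6 h of stimulation. In Nebl and Dph5 the genotypes are apart at 1 h and overlap at 6 h, and Map3k19 is near 0 in KO at both times.

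The 12 genes with a proper symbol and the smallest p in each direction were examined together, 3 called and 21 not called. In each of the 24 the 3 within-number changes in KO all lay outside the 3 in WT. The same holds for 1356 genes or 11.5% of those tested, with 7.31% above and 4.14% below, and follows in part from choosing by p. All 24 therefore have an exact two-sided permutation p of 0.1, the smallest that 3 against 3 can give. In all 12 genes of the positive side KO was below WT at 1 h, and in 10 of them the gap was smaller at 6 h. Of the 12 on the negative side, 10 had KO above WT at 1 h, and the gap was smaller at 6 h in 7. A difference of changes is the gap at 6 h minus the gap at 1 h. Choosing by its p therefore favours these signs at 1 h, and the counts are not separate support.

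Tsga13, named for its expression in testis, had the largest positive difference of the 12 after Map3k19, 1.25 (SE 0.19, limma adjusted p = 0.128). Its level was 9.77, 7.05 and 6.75 FPKM in WT and 2.07, 1.95 and 1.56 FPKM in KO at 1 h, and 0.0796 to 0.636 FPKM over both genotypes at 6 h. KO was below WT in every library at both times, and both were low at 6 h. The 6 h values rest on few fragments, 15, 10 and 12 in WT and 3, 7 and 2 in KO. Without anything added to FPKM, the KO mean was 23.7% of the WT mean at 1 h and 32.1% at 6 h. The size of the difference therefore depends on the 1 added to FPKM. Over 28 alternatives it ran from 0.39 to 1.37, and 2 of them called the gene. Pik3r4 encodes the regulatory VPS15 subunit of class III phosphoinositide 3-kinase. It was at 36.1, 32.1 and 34.5 FPKM in WT and 22.7, 25.8 and 23.0 FPKM in KO at 1 h, and at 11.6 to 12.5 FPKM in all 6 libraries at 6 h. Its difference was 0.51 (SE 0.08, limma adjusted p = 0.153).

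Axl, a receptor kinase that binds GAS6 and takes part in the clearance of dying cells, was at 14.4, 13.6 and 13.1 FPKM in WT and 7.49, 9.43 and 8.36 FPKM in KO at 1 h. At 6 h it was at 13.0, 14.2 and 12.4 FPKM in WT and 13.0, 12.9 and 13.5 FPKM in KO. The level in WT was flat while KO started lower and met it, a difference of 0.65 (SE 0.11, limma adjusted p = 0.156). Plxnd1, a semaphorin receptor, differed by 0.57 and S1pr3, a sphingosine 1-phosphate receptor, by 0.51, with the same course of a gap at 1 h that was small at 6 h. Mfhas1 differed by 0.56 and Rsu1, which binds the integrin-linked adaptor PINCH, by 0.47, and in both KO was lower at 1 h and higher at 6 h. None of these 5 was called.

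Ptpn7 and Ikbip were the exceptions, with a gap that opened by 6 h. Ptpn7 encodes a phosphatase of haematopoietic cells that acts on ERK and p38. It was at 13.9, 13.9 and 14.7 FPKM in WT and 11.6, 13.8 and 13.4 FPKM in KO at 1 h, and at 7.45, 8.24 and 7.85 FPKM in WT and 11.96, 10.98 and 11.73 FPKM in KO at 6 h. The genotypes were close at 1 h, and at 6 h every KO library was above every WT library. The difference of 0.63 (SE 0.09) had a limma adjusted p of 0.0913, and 2 of 29 alternatives called it. Ikbip, which encodes a protein that binds the kinase IKBKB, differed by 0.50.

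On the negative side no gene was called, and the limma adjusted p ran from 0.532 to 0.962. Ccnd2 encodes cyclin D2, needed for B cells to enter the cycle after receptor stimulation. It was at 27.8, 24.2 and 30.4 FPKM in WT and 36.5, 30.9 and 38.4 FPKM in KO at 1 h, and at 33.69, 26.17 and 33.95 FPKM in WT and 23.1, 23.8 and 25.5 FPKM in KO at 6 h. Every KO library was above every WT library at 1 h and below all of them at 6 h, a difference of -0.70 (SE 0.16, adjusted p = 0.598). Cd44, the hyaluronan receptor, was at 48.8, 51.7 and 45.4 FPKM in WT and 52.0, 51.3 and 50.3 FPKM in KO at 1 h, and at 52.31, 53.95 and 49.96 against 43.3, 42.0 and 45.1 FPKM at 6 h. Its genotypes overlapped at 1 h and were apart at 6 h, with a difference of -0.33 (SE 0.07, limma adjusted p = 0.532).

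Pim1, a kinase that promotes survival, was lower in KO at both times, with a gap to WT of -0.25 at 1 h and -0.60 at 6 h on the log2 scale, giving a difference of -0.35. Nfkb1, the precursor of the NF-kB p50 subunit, was at 92.2, 83.2 and 88.6 FPKM in WT and 98.1, 96.1 and 97.6 FPKM in KO at 1 h. At 6 h it was at 216, 206 and 224 FPKM in WT and at 200.1, 208 and 203 FPKM in KO, a difference of -0.23. The remaining genes of the negative side were Serpina3f (-0.78), Tbkbp1, which encodes a TBK1 binding protein (-0.55), Tnfrsf8, which encodes CD30 (-0.51), Stt3b, a catalytic subunit of oligosaccharyltransferase (-0.24), the caspase gene Casp4 (-0.24), Kbtbd4 (-0.23), Rnf157 (-0.23) and the sorting nexin gene Snx11 (-0.18).

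**Figure D3:**
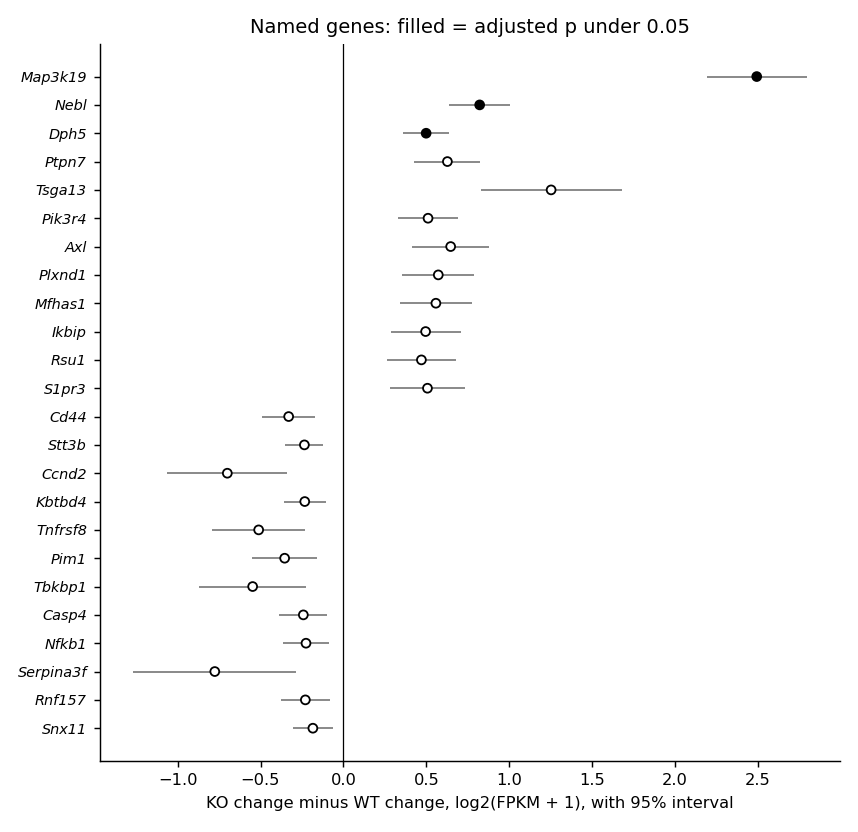
Points give the difference of changes, KO minus WT, in log2(FPKM + 1) units for the 24 named genes, with bars for the limma 95% interval. Intervals are unadjusted, and only Map3k19, Nebl and Dph5 were called after adjustment.

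Differences of at least 1 on the log2 scale were found in 47 genes, 12 positive and 35 negative. By annotation they were 19 small RNAs, 15 pseudogenes, 7 immunoglobulin or T cell receptor segments and 6 protein-coding genes, and of all 47 only Map3k19 was called. In 19 of the 35 negative genes the highest of the 12 libraries was WT replicate 2 at 6 h. The mitochondrial gene mt-Co2 shows this course, with 20.9 FPKM in that library and 0.64 to 2.12 FPKM in the other 11, and a difference of -1.31 (SE 0.93). Changes of at least 1.5-fold in opposite directions were found in 2 genes, the T cell receptor segments Trbj2-1 and Trbd2, and in 0 protein-coding genes.

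Genes were also divided by the size of the average change of both genotypes, which does not use the difference. Among the 1769 genes at least 2-fold higher at 6 h, the median difference was 0.00 and 51.3% were positive. Among the 1114 genes at least 2-fold lower at 6 h, the median difference was 0.06 and 68.4% were positive, against 56.5% of all genes. At an unadjusted p under 0.05, 81 of these 1114 were higher in KO and 10 lower. The median change of the 1114 was -1.47, -1.51 and -1.45 in the WT numbers 1, 2 and 3 and -1.44, -1.42 and -1.30 in the KO numbers. The KO values were all closer to 0 than the WT values, by little. Without both KO libraries numbered 3, 58.5% of these genes were positive against 58.1% of all genes, so the excess was small without that pair. Their median difference was then 0.036, against 0.037 in the genes at least 2-fold higher and 0.019 in the rest. A shift of all libraries to a common median gave 60.8% against 45%.

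Marginal zone B cells are a splenic subset that responds fast to blood-borne antigen, with high CD21 and CD1d. Of 22 marker genes of this subset 21 were tested, and 17 had a positive difference, against 56.5% of all genes. The median was 0.27 against 0.02 over all genes. Dph5 was the called member, and the only called gene in the 34 lists examined. At an unadjusted p under 0.05, 9 of the 21 were higher in KO and 0 lower, against 3.13% and 1.4% of all genes. The mean change of the list was -0.77, -0.73 and -0.73 in WT and -0.49, -0.54 and -0.45 in KO, without overlap. The lists of ERK phosphatases, inhibitory receptors, glycolysis, MHC class II, macrophage and neutrophil genes also had every KO mean above every WT mean. Among single genes, 7.31% of those tested had all 3 KO changes above all 3 in WT. Dph5, Pik3r4 and S1pr3, which rank 3, 6 and 13 by p for the difference of changes, are on the marginal zone list. It was drawn up with earlier results of these data known, so its median and counts are not separate support.

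Myof, which encodes the membrane repair protein myoferlin, was at 14.8, 12.2 and 12.5 FPKM in WT and 7.63, 8.47 and 7.602 FPKM in KO at 1 h, and at 14.6, 14.2 and 15.1 against 15.0, 12.3 and 13.6 FPKM at 6 h. S1pr3 was at 38.0, 33.2 and 40.4 FPKM in WT and 25.3, 26.3 and 22.3 FPKM in KO at 1 h, and at 19.0 to 20.6 FPKM in all 6 libraries at 6 h. Cd1d1, which encodes the lipid-presenting CD1d, was at 26.6, 30.4 and 31.0 FPKM in WT and 21.2, 26.4 and 20.2 FPKM in KO at 1 h, and at 5.62, 5.86 and 5.11 against 6.26, 7.07 and 6.02 FPKM at 6 h. In these genes KO was below WT at 1 h in every library, and at 6 h the gap was small or turned. The other members at that unadjusted p were Tm6sf1 (0.34), the ubiquitin ligase subunit Asb2 (0.68), the G protein regulator Rgs10 (0.40) and Cr2, which encodes CD21 (0.33). In bulk RNA, fewer cells of a subset and less RNA per cell cannot be told apart. Over the 29 alternatives in which the list was recomputed, its median stayed between 0.18 and 0.32, with 7 to 11 members higher at the unadjusted p and 0 lower. Without both WT libraries numbered 3 it was 0.24, with 9 higher.

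Follicular B cell markers had a median of -0.08 over 14 genes, with 6 positive, where 56.5% of all genes were positive. The sign of their median turned in 1 of 29 alternatives. Their 2 members at an unadjusted p under 0.05, Klf2 (0.33) and Cr2 (0.33), were both higher in KO. Macrophage and monocyte markers had a median of 0.25 over 18 tested genes, whose sign turned in 1 of 29 alternatives. Of these 14 were positive, against 56.5% of all genes. Axl, Mertk and Cd68 were higher at an unadjusted p under 0.05, against 3.13% of all genes. The list's summed level was 497 to 647 FPKM in WT and 318 to 374 FPKM in KO at 1 h. At 6 h it was 152 to 243 FPKM in WT and 104 to 149 FPKM in KO. Of its 23 genes, 1 was at 0 in each 1 h group and 2 in each 6 h group. Neutrophil markers summed to 952, 501 and 67.9 FPKM in WT at 1 h and to 31.6 to 92.0 FPKM in KO, with a median difference of 0.25. Of the 12 tested, 0 were at an unadjusted p under 0.05 in limma, and 3 with the replicate block. The sign of the median turned in 2 of 29 alternatives, over a range of -0.72 to 1.08. Erythroid markers had a median of 0.33 with all 17 tested positive and 0 at that p, and their median ran from -0.14 to 1.19, with the sign turned in 5 of 29 alternatives. The part of these cells in the differences was not tested.

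**Figure D4:**
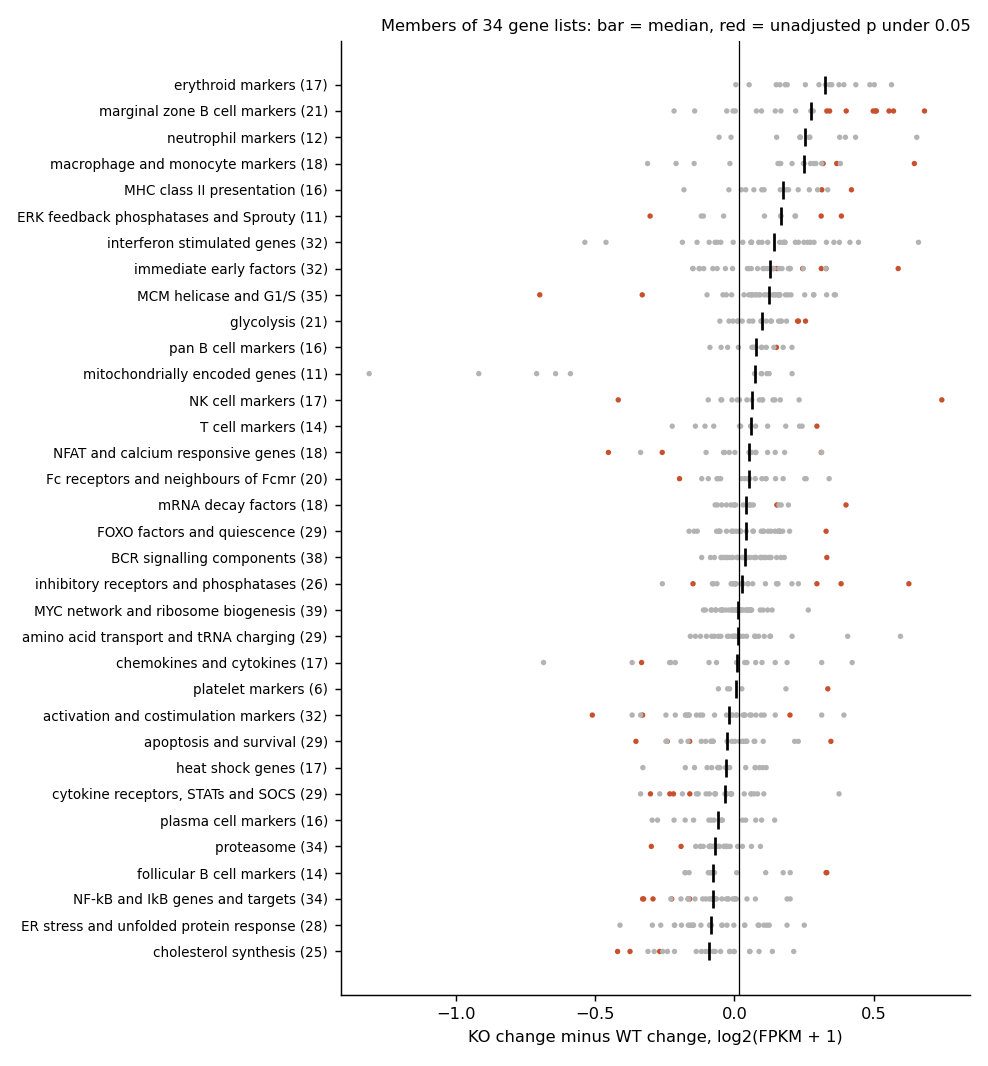
Each row is a gene list, with a point for the difference of changes of each tested member in log2(FPKM + 1) units (red where the unadjusted p was under 0.05), a short bar for the list's median and a vertical line for the median of all genes. Marginal zone markers lie mostly to the right of 0, with a median of 0.27, and NF-kB genes mostly to the left, with a median of -0.08. The lists were drawn up with earlier results of these data known.

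Immediate early factors were lower at 6 h in both genotypes, with a median change of -2.12 in WT and -1.85 in KO. Of 32 tested, 23 had a positive difference, against 56.5% of all genes, and the median was 0.13. At an unadjusted p under 0.05, 5 were higher in KO and 0 lower, against 3.13% and 1.4% of all genes, and none was called. Klf2, a factor of B cell quiescence and trafficking, was at 98.1, 106 and 110 FPKM in WT and 79.3, 86.8 and 92.1 FPKM in KO at 1 h, and at 9.65 to 11.1 FPKM in all 6 libraries at 6 h. Egr2, a factor induced by receptor signals, was at 669, 760 and 661 against 699, 583 and 624 FPKM at 1 h and at 216, 218 and 202 against 240, 222 and 257 FPKM at 6 h. KO was below WT at 1 h in Klf2 and above it at 6 h in Egr2. The AP-1 member Fosl2 differed by 0.59, Ier2 by 0.24 and the mRNA decay factor Zfp36l1 by 0.15. Without both WT libraries numbered 3 the median was 0.05, with 3 higher and 0 lower. The mean changes of the list overlapped between genotypes, at -2.13, -2.21 and -2.38 in WT and -2.15, -2.19 and -2.04 in KO.

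Among 11 ERK phosphatases and Sprouty genes 7 were positive, with Dusp6 (0.38) and Dusp8 (0.31) higher and Dusp5 (-0.30) lower at an unadjusted p under 0.05. The sign of their median, 0.17, turned in 1 of 29 alternatives. In the list of NF-kB genes, inhibitors and targets, 27 of 34 had a negative difference, where 56.5% of all genes were positive, and the median was -0.08. The 5 at an unadjusted p under 0.05 were all lower in KO, against 1.4% of all genes lower at that p: Cd44, Nfkb1, the nuclear inhibitor family member Nfkbid (-0.33), the caspase inhibitor Cflar (-0.16) and the coactivator Bcl3 (-0.29). Nfkbid was at 355, 403 and 412 FPKM in WT and 368, 377 and 320.3 FPKM in KO at 1 h, overlapping, and at 132, 127 and 108 against 83.4, 93.5 and 88.1 FPKM at 6 h, where all KO libraries were lower. The list's mean changes overlapped, at -0.25, -0.27 and -0.32 in WT and -0.45, -0.34 and -0.31 in KO.

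Components of B cell receptor signalling had a median of 0.04 over 38 genes, with Cr2 alone at an unadjusted p under 0.05. Inhibitory receptors and phosphatases had a median of 0.03 over 26 genes, whose sign turned in 1 of 29 alternatives, with Ptpn7, the collagen receptor Lair1 (0.38) and Cd5 (0.30) higher and the B cell coreceptor Cd72 (-0.15) lower at that p. Among 18 genes responsive to NFAT and calcium, with a median of 0.05 whose sign turned in 1 of 29 alternatives, Egr2 was higher and Tnfrsf4 (-0.26) and Tbx21 (-0.45) lower. Activation and costimulation markers had a median of -0.02 over 32 genes, whose sign turned in 1 of 29 alternatives, with Cd44 and Tnfrsf8 lower and the oxysterol receptor gene Gpr183 (0.20) higher. With the replicate block, 3 receptor signalling genes were higher at that p, and 2 activation markers were higher and 4 lower.

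The biosynthetic lists showed few differences. MYC network and ribosome biogenesis genes were higher at 6 h by a median of 1.27 in WT and 1.28 in KO, with 0 of 39 at an unadjusted p under 0.05 for the difference. Amino acid transport and tRNA charging likewise had 0 of 29 at that p, with a median difference of 0.01, as had 28 unfolded protein response genes (-0.09) and 17 heat shock genes (-0.03). With the replicate block 3 unfolded protein response genes were lower in KO at that p, and 0 in the other 3 lists. The sign of the median turned in 7 of 29 alternatives for the MYC list and in 6 each for the amino acid and heat shock lists. It turned in 0 for the unfolded protein response list, where 19 of 28 genes had a negative difference. Over all genes, 56.5% were positive. No member of these 4 lists was called by limma.

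Cholesterol synthesis genes were higher at 6 h in both genotypes, and 20 of 25 had a negative difference, where 56.5% of all genes were positive. The list's median was -0.09. Hmgcs1, the synthase upstream of HMG-CoA reductase, was at 27.1, 29.2 and 36.6 FPKM in WT and 44.8, 36.3 and 35.9 FPKM in KO at 1 h, and at 104, 103 and 93.9 against 99.1, 89.5 and 103 FPKM at 6 h. The genotypes overlapped at both times. Msmo1 (-0.42) and Cyp51 (-0.27), both enzymes of the later sterol steps, were with Hmgcs1 (-0.38) at an unadjusted p under 0.05. Over all genes 1.4% were lower in KO at that p. Among proteasome genes 30 of 34 were negative with a median of -0.07, and the activator subunits Psme2 (-0.30) and Psme1 (-0.19) were at that p. Psme2 was at 144 to 149 FPKM in WT and 143 to 164 FPKM in KO at 1 h, overlapping, and at 523, 532 and 518 against 454, 492 and 424 FPKM at 6 h, where KO was lower in every library.

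MHC class II presentation genes had a median change of -1.19 in WT and -1.05 in KO. Of 16 genes 14 had a positive difference, against 56.5% of all genes. The list's median difference was 0.18, or 0.07 without both WT libraries numbered 3. Ciita, the class II transactivator, was at 46.2, 51.0 and 60.9 FPKM in WT and 50.7, 58.5 and 52.6 FPKM in KO at 1 h, and at 33.7, 37.7 and 36.5 against 50.3, 42.4 and 57.8 FPKM at 6 h. Its genotypes overlapped at 1 h and KO was higher in each library at 6 h, a difference of 0.42 (SE 0.17, limma unadjusted p = 0.0302), and H2-DMb2, a chain of the peptide-editing DM molecule, differed by 0.31. Genes of the MCM helicase and G1/S were positive in 29 of 35, with a median of 0.12, against 56.5% and 0.02 over all genes. Ccnd2 and Mcm6 (-0.33) were lower and the cell cycle inhibitor Cdkn1b (0.16) higher at an unadjusted p under 0.05. In glycolysis 18 of 21 were positive with a median of 0.10. The glucose transporter Slc2a3 (0.26), the enolase Eno3 (0.23) and the kinase Pdk1 (0.23) were higher at that p, against 3.13% of all genes.

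Cytokine receptors, STATs and SOCS genes were negative in 22 of 29, with a median of -0.03, where 56.5% of all genes were positive. The list's mean changes overlapped, at -0.20, -0.17 and -0.14 in WT and -0.31, -0.16 and -0.22 in KO. Ifngr2 (-0.22), Ifngr1 (-0.16), Stat3 (-0.30) and Socs3 (-0.23) were lower in KO at an unadjusted p under 0.05, against 1.4% of all genes. Apoptosis and survival genes had a median of -0.03 over 29, whose sign turned in 3 of 29 alternatives, with Pim1, Casp4 and Cflar lower and Bcl2 (0.35) higher. Interferon stimulated genes had a median of 0.14 over 32 with 0 at that p (2 lower with the replicate block), and the sign turned in 2 of 29 alternatives. FOXO and quiescence genes had a median of 0.04 over 29, mRNA decay factors 0.04 over 18, chemokines and cytokines 0.01 over 17 and plasma cell markers -0.06 over 16. Pan B cell markers had a median of 0.08 over 16, T cell markers 0.06 over 14, NK cell markers 0.06 over 17, platelet markers 0.00 over 6 and mitochondrially encoded genes 0.07 over 11. The sign turned in 13 of 29 alternatives for chemokines and cytokines, in 10 for platelet, 3 for NK cell, 2 for T cell, 2 for mitochondrial and 1 for plasma cell markers. With the replicate block, 2 plasma cell markers were lower in KO at that p.

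Fc receptors and neighbours of Fcmr had a median of 0.05 over 20 genes, with Fcmr itself at an unadjusted p under 0.05. Within 5 Mb of Fcmr on chromosome 1, 62 genes other than Fcmr were tested and 6 were at that p, or 9.68%, against 4.46% of the 11130 genes on other chromosomes. These were Map3k19, Ptpn7, Ube2t, Klhl12 and Adipor1 on the positive side and Mcm6 on the negative side. Klhl12, an adaptor of the CUL3 ubiquitin ligase, was at 20.8, 20.1 and 20.5 FPKM in WT and 13.8, 13.5 and 13.5 FPKM in KO at 1 h, and at 18.4, 17.3 and 17.0 against 14.5, 13.2 and 14.2 FPKM at 6 h. It was lower in KO at both times, with a narrower gap at 6 h. Mcm6, which encodes part of the MCM helicase that opens DNA for replication, was at 41.6, 37.9 and 31.7 FPKM in WT and 24.98, 22.74 and 27.41 FPKM in KO at 1 h, and at 58.2, 63.4 and 62.0 against 33.1, 33.0 and 32.7 FPKM at 6 h, with a gap that was wider at 6 h. From 5 to 10 Mb 18 genes were tested and 1, Tmem9, was at that p.

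**Figure D5:**
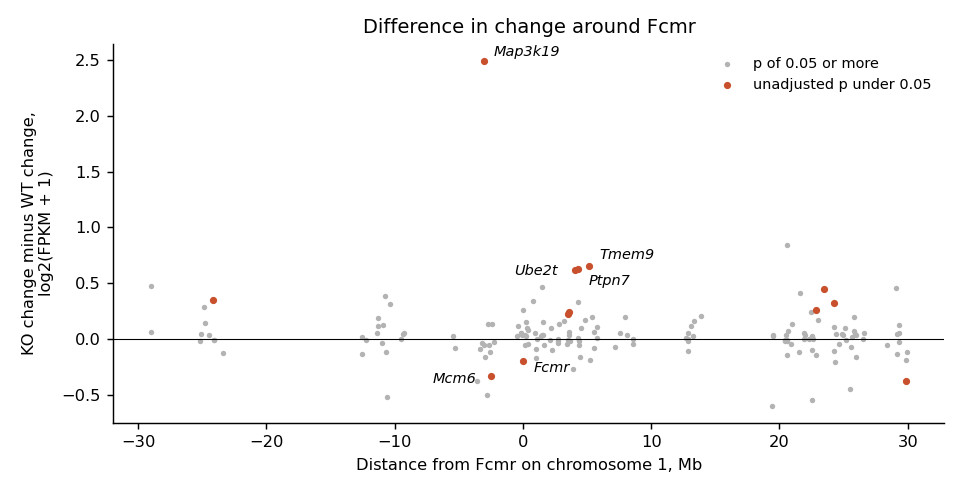
Each point is a tested gene on chromosome 1 near Fcmr, by its distance from Fcmr in Mb on the x axis and its difference of changes, KO minus WT, in log2(FPKM + 1) units on the y axis, in red where the unadjusted p was under 0.05. Map3k19, 3.01 Mb from Fcmr, is the called gene.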

How the data were processed

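Poly-A RNA of 12 libraries, 3 per genotype and time, is given as FPKM in a table deposited by the authors, and the unit is known from the table's name. The genome build mm10, STAR and HTSeq are named in the submitters' processing notes, without versions. The gene annotation and gene lengths used for FPKM are not given in the sources used here. Symbols were found for 55141 genes and GENCODE vM21 positions for 55227, and 27552 genes were 0 in all libraries.

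The scale was log2(FPKM + 1). Limma 3.58.1 in R 4.3.3 was fitted with 4 group means and a variance trend, the difference of changes was tested two-sided, and p-values were adjusted by Benjamini-Hochberg across 11841 genes whose mean reached 1 FPKM. With 1 added, the log2 change of a low gene is understated, and more so in the genotype with the lower level. A difference of changes can therefore come out too large or too small in such genes. Replicates are called biological in the labels without naming animals, so a p-value reflects only how these libraries vary, which may be technical. No count test was the main test, because the table holds FPKM. With annotated lengths, 99.1% of tested genes were whole multiples of 1 fragment (tolerance 0.01), and 99.98% were recovered as fragments, which gave the depth and the voom alternative. The floor of 3 fragments, which covers counting error only, was 0.0623 to 0.0779 FPKM for a transcript of 2 kb. The fit was tested on simulated data.

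Within a genotype, libraries of the same replicate number deviated together between times (correlations of 0.338 to 0.547 in WT and 0.365 to 0.476 in KO), so the numbers pair the 2 times within a genotype. Across genotypes at the same time, libraries of the same number had correlations of -0.15 to 0.248. Different numbers were not compared there, so a pairing across genotypes was not assessed. Named by rule were the 12 genes with the smallest p in each direction (predicted genes, pseudogenes, receptor segments, histone and sex genes exempt), Fcmr, and up to 4 members of a list by p. Further marginal zone members, Zfp36l1, Bcl3, mt-Co2, Trbj2-1, Trbd2 and genes near Fcmr were named after their values were seen. Alternatives changed the pseudocount, filter, block, scaling, moderation and libraries. The genes, lists and members were chosen with earlier results of these data known.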

Additional observations from a re-analysis of the deposited data

Results flagged for a closer look

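Map3k19, Nebl and Dph5 stand out because their change from 1 h to 6 h differed by genotype. The difference passed limma's test across all genes in the main fit, which had no replicate block. The difference, KO minus WT, was 2.49 (SE 0.14, limma adjusted p = 3.3e-05) for Map3k19, 0.82 (SE 0.08, adjusted p = 0.0074) for Nebl and 0.50 (SE 0.06, adjusted p = 0.0359) for Dph5. In each, 3 of 3 KO changes lay above all 3 WT changes, as in 7.31% of all genes tested, which follows in part from choosing by p. With each replicate number within a genotype as a block, limma called Map3k19 but not Nebl or Dph5.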

How the results depend on the processing

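The count of 3 genes called by limma moved with the processing. It was 0 with 0.1 added to FPKM, 0 with a filter at a mean of 5 FPKM and 0 with voom on recovered fragments, where 530, 347 and 503 genes had an unadjusted p under 0.05. It was 6 with 5 added and 21 with no filter, 14 higher and 7 lower in KO. With the replicate numbers as a fixed block, 1 gene was called (Map3k19, limma adjusted p = 0.0071), and with a random block 5. Leaving out single libraries or pairs gave 1 to 3, including 1 without both WT libraries numbered 3, and Map3k19 was called in all 18 omissions, Nebl in 9 and Dph5 in 1. Over all alternatives Map3k19 was called in 26 of 28, Nebl in 16 of 28 and Dph5 in 7 of 29, and none of their differences changed sign. Fcmr was called only with quantile normalization, where its difference was -0.615 (limma adjusted p = 0.00851). A shift to a common median moved the share of positive differences over all genes from 56.5% to 45%, and quantile normalization to 48.8%. The unadjusted 95% interval of a typical gene, 0.24 log2 units to either side, limits what 3 libraries per group can show. The causes of these movements were not tested.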
